A study of Drosophila melanogaster with 4 samples.

Results

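The heterochromatin scaffolds 2LHet, 3LHet and 3RHet are sequences of the *Drosophila melanogaster* genome that the dm3 assembly assigns to the heterochromatin of the chromosome arms 2L, 3L and 3R without joining them to those arms. Their members here are all non-overlapping 1-kb bins with 5 or more genome probes whose probe names give a position on one of these scaffolds. The rule gave 4628 bins of the 146889 on the arrays, with 255 on 2LHet, 2243 on 3LHet and 2130 on 3RHet. Another 273 bins of the scaffolds held at least 1 probe but fewer than 5 and were left out. The rule uses the position and the number of probes of a bin and no measured ratio.

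Heterochromatin is the compact part of the genome around the centromeres, built largely from transposable elements and satellite repeats and marked by methylated histone H3 lysine 9 and the protein HP1. It holds few genes, some of which are transcribed in spite of their surroundings. Myb is a sequence-specific DNA-binding protein of the dREAM complex in *Drosophila*, best known at the promoters of cell cycle genes that act at mitosis.

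ChIP-chip of Myb was performed on chromatin of wing imaginal discs, the epithelial sacs of the larva from which the wing develops, of male 3rd instar larvae of the yw67 strain. All arrays are of this 1 genotype, which carries marker mutations of body and eye colour and is the control genotype of the study. There are 2 biological replicates, each hybridized to 2 array designs that together tile the genome. The Myb immunoprecipitate was labeled with Cy5 and the input, sonicated genomic DNA that was not immunoprecipitated, with Cy3 on all 4 arrays. The dyes were not exchanged, and the arrays have no immunoprecipitate without antibody and none from *Myb* mutant discs, so a property of the dye or of the precipitation and Myb binding cannot be told apart in a ratio. A disc holds several cell types, and their parts in a ratio cannot be told apart.

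All values are log2 ratios of the immunoprecipitate over the input signal, centred on the median of the genome probes of each array. A value of 0 is therefore the ratio of the typical probe, not the absence of Myb. Scaffold bins held a median of 13 probes, and the median spacing of probe starts was 66 to 70 bp per scaffold. 2LHet lies on array design 1 together with 2L and 3L, and 3RHet lies on array design 2 together with 3R. 3LHet is divided between both designs, with 1227 bins from its start on design 1 and the following 1016 bins on design 2.

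The scaffolds were lower than the typical probe in both replicates. On 2LHet the median log2 ratio of the bins was −0.17 (replicate 1) and −0.26 (replicate 2). On 3LHet it was −0.21 and −0.24, and on 3RHet −0.21 and −0.23. As means over replicates these were −0.22 ± 0.07 on 2LHet, −0.22 ± 0.02 on 3LHet and −0.22 ± 0.01 on 3RHet (SD, n = 2 each). The bins of a scaffold were spread far more widely than the scaffolds differed. On 3LHet the quartiles ran from −0.39 to 0.04 in replicate 1 and from −0.40 to −0.08 in replicate 2.

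**Figure D1:**
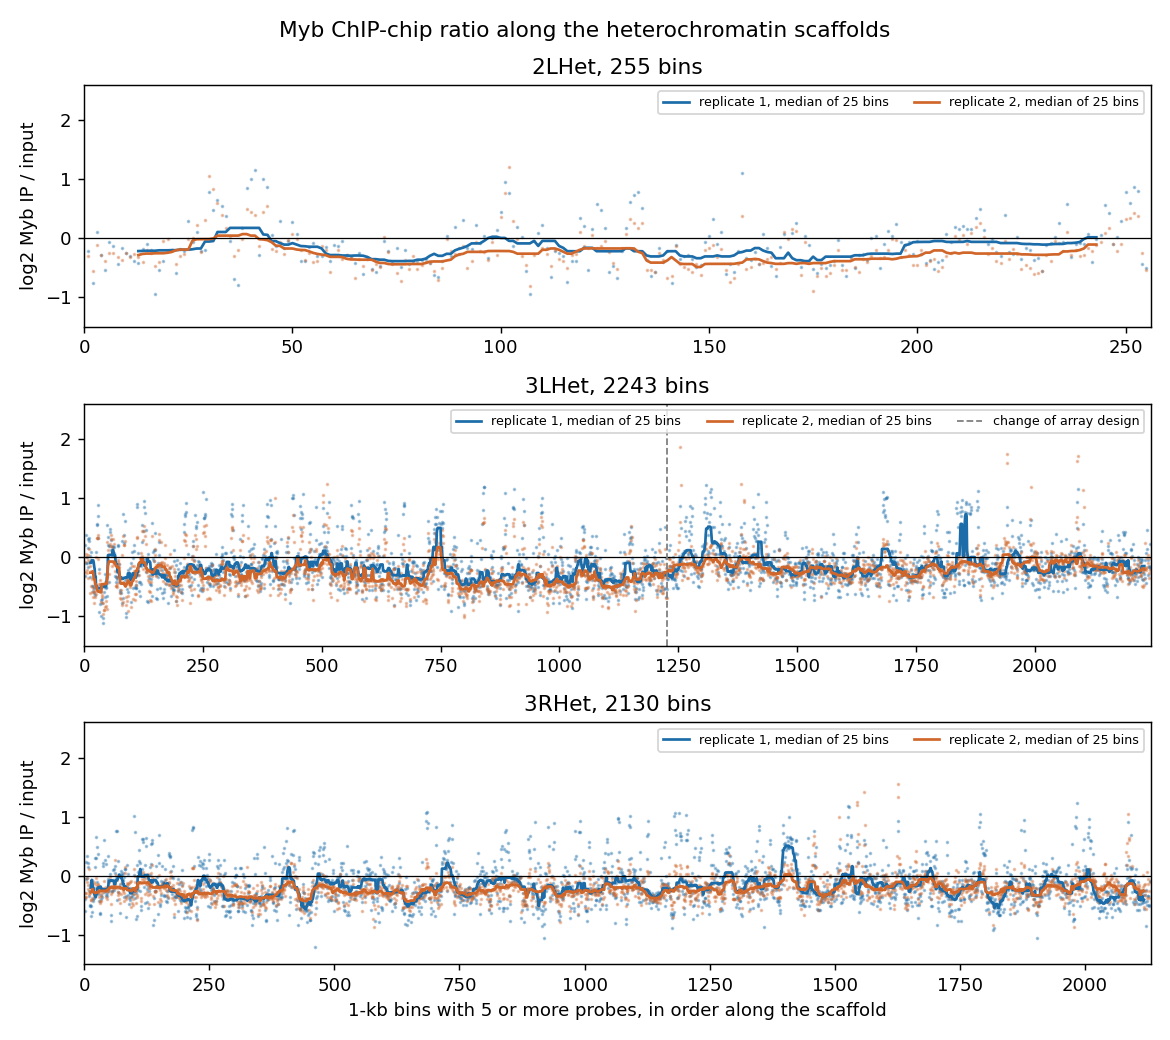
Log2 ratio of Myb immunoprecipitate over input (vertical axis) of each 1-kb bin in its order along 2LHet, 3LHet and 3RHet (horizontal axis), with points for single bins and lines for the median of 25 bins in replicates 1 and 2. Most bins lie below 0 on each scaffold, with short groups of high bins between them, and the dashed line marks where 3LHet passes from design 1 to design 2.

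The arms lay closer to 0 or above it, and the sign of an arm median moves with the centring. The median was −0.06 in both replicates on 2L, −0.01 and 0.02 on 3L, and 0.05 and 0.09 on 3R. On the log2 scale 2LHet minus 2L was −0.11 in replicate 1 and −0.21 in replicate 2 (mean −0.16 ± 0.07, SD, n = 2). 3LHet minus 3L was −0.20 in replicate 1 and −0.26 in replicate 2 (mean −0.23 ± 0.04, SD, n = 2). 3RHet minus 3R was −0.26 in replicate 1 and −0.33 in replicate 2 (mean −0.29 ± 0.05, SD, n = 2), which puts the typical 3RHet bin at 81.7% of the ratio of the typical 3R bin. Each difference was negative in both replicates. With 2 replicates an exact test cannot go below a two-sided p of 0.5, so these differences stand without a test.

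The scaffolds also lacked the high end of the arms, and more so in replicate 2. The 95th percentile of 3RHet was 0.59 in replicate 1 and 0.10 in replicate 2, against 0.86 and 1.06 on 3R. On 3LHet it was 0.71 and 0.28, against 0.84 and 1.03 on 3L. On 2LHet it was 0.74 and 0.38, against 0.79 and 0.97 on 2L. At the low end the 5th percentiles were −0.62 and −0.61 on 2LHet against −0.65 and −0.63 on 2L, −0.62 and −0.65 on 3LHet against −0.61 and −0.60 on 3L, and −0.64 and −0.49 on 3RHet against −0.54 and −0.43 on 3R.

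**Figure D2:**
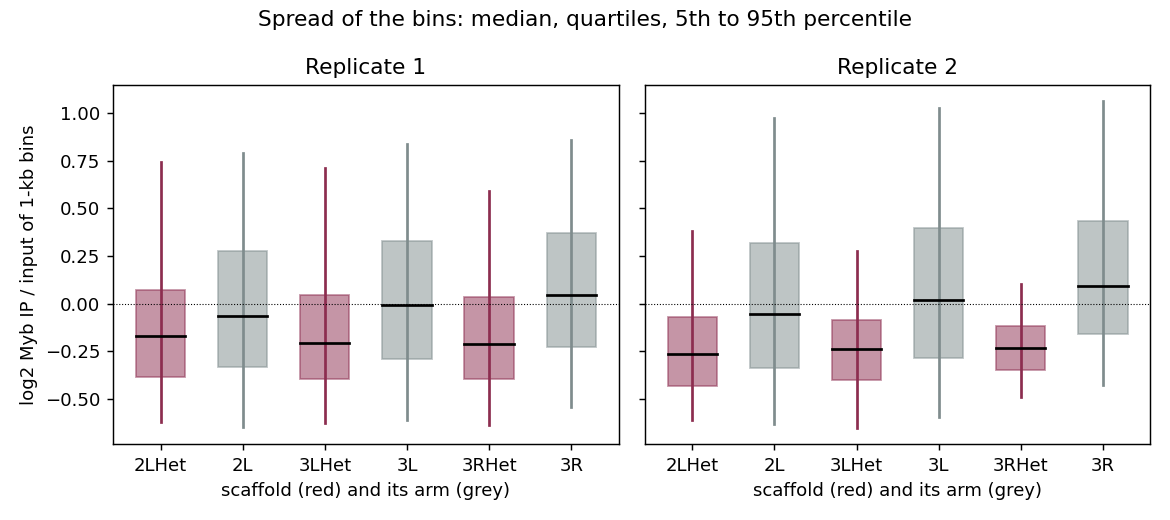
Log2 ratio of Myb immunoprecipitate over input (vertical axis) of the 1-kb bins of each scaffold (red) beside its arm (grey) in each replicate, with the median as a line, the quartiles as a box and the 5th to 95th percentile as a thin line. The scaffold medians lie between −0.26 and −0.17 and the arm medians between −0.06 and 0.09.

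Centred on the median of the genome probes, the medians of the scaffolds lay within 0.04 of one another in each replicate. The median of 2LHet minus that of 3LHet was 0.03 in replicate 1 and −0.03 in replicate 2, and 2LHet minus 3RHet was 0.04 and −0.03. 3LHet minus 3RHet was 0.01 in replicate 1 and −0.01 in replicate 2. These 3 differences, which cross array designs, changed sign between the replicates, and this rests on the centring. With the probes of the chromosome arms as centre, replicate 1 had −0.19 on 2LHet, −0.24 on 3LHet and −0.27 on 3RHet. Replicate 2 had −0.29, −0.31 and −0.34, so the order was then the same in both replicates. Within a design the differences between scaffolds had 1 sign. 2LHet minus the design 1 bins of 3LHet was 0.08 in replicate 1 and 0.07 in replicate 2 (mean 0.08 ± 0.01, SD, n = 2), and the design 2 bins of 3LHet minus 3RHet were at 0.06 in both replicates.

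Within 3LHet the values differed more than between the scaffolds when centred on the median of the genome probes. The bins on design 1 had a median of −0.26 in replicate 1 and −0.34 in replicate 2, against −0.16 and −0.18 for those on design 2, a difference of −0.13 ± 0.04 (SD, n = 2). Centred on the probes of the chromosome arms of each array instead of on all genome probes, the difference was −0.06 in replicate 1 and −0.08 in replicate 2. In replicate 1 the scaffold medians were then further apart than these parts of 3LHet, at −0.19 on 2LHet and −0.27 on 3RHet. Position on the scaffold and array design cannot be told apart here. Against 3L, which lies on the same design, the design 1 bins of 3LHet differed by −0.25 in replicate 1 and −0.36 in replicate 2.

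Centred on the median of the genome probes, each longer stretch of the scaffolds had a median below 0. Block medians were not computed with other centrings. Centring on the mode put the median of the whole of 3RHet at −0.06 and −0.09, so the sign of blocks near 0 rests on the centring. Divided at gaps of 10 kb or more between bins, 2LHet had 3 blocks of at least 10 bins, 3LHet had 6 and 3RHet had 8, and the median of each was negative in both replicates. On 3RHet the block chosen here for its lowest median was a stretch of 76 bins at chr3RHet:367001-449000, with medians of −0.36 in replicate 1 and −0.37 in replicate 2. In it limma's test against 0 called 30 bins depleted and 0 enriched, with 0 enriched at an unadjusted p under 0.05. The shares were 17.0% depleted and 1.88% enriched on 3RHet, and 11.1% and 18.6% of all bins. The block was chosen by the same ratios, so its counts are no separate result. The highest block by its mean was a stretch of 136 bins at chr3LHet:2181001-2328000, with −0.17 in replicate 1 and −0.08 in replicate 2. The block medians of 3LHet ran from −0.25 to −0.15 in replicate 1 and from −0.33 to −0.08 in replicate 2, those of 3RHet from −0.36 to −0.09 and from −0.37 to −0.17, and those of 2LHet from −0.22 to −0.11 and from −0.30 to −0.20. The last block of 3RHet, 87 bins at chr3RHet:2431001-2518000, had the lowest input of all blocks, at a log2 of 0.09 and 0.27, and medians of −0.32 and −0.22.

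The order of the bins was partly shared by the replicates. Across bins, which share the arrays of a replicate, Pearson's r between replicates was 0.83 on 2LHet, 0.73 on 3LHet and 0.62 on 3RHet, against 0.80 on 2L, 0.79 on 3L and 0.74 on 3R. The value of 3LHet pools 0.86 for its design 1 bins and 0.52 for its design 2 bins. Scaffold and array design therefore cannot be told apart in these values. The bins of 3RHet were spread less in replicate 2 (SD over bins 0.20) than in replicate 1 (0.36), whereas those of 3R had 0.46 in replicate 2 and 0.43 in replicate 1.

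The parts of the arms that adjoin the centromeres were not all alike. The last 1 Mb of 3L had medians of −0.26 in replicate 1 and −0.34 in replicate 2. The design 1 bins of 3LHet differed from it by 0.01 in replicate 1 and −0.0020 in replicate 2. The last 1 Mb of 2L had −0.20 and −0.26, and 2LHet differed from it by 0.03 and −0.0021. The first 1 Mb of 3R had 0.11 and 0.14, and 3RHet minus this stretch was −0.32 and −0.38. The input level of these stretches differed in the same way. It was a median of 2.85 and 3.11 times the array median at the end of 3L and 1.79 and 1.90 times at the end of 2L, but 0.66 times in both replicates at the start of 3R.

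The input signal of the scaffolds was high. The median input of the bins was 3.75 times the array median in replicate 1 and 4.12 times in replicate 2 on 2LHet, 2.96 and 3.36 times on 3LHet, and 3.12 and 3.89 times on 3RHet. The arms had 0.89 times in both replicates on 2L, 0.85 and 0.84 times on 3L, and 0.72 and 0.71 times on 3R. On 3LHet 64.7% of the bins in replicate 1 and 68.0% in replicate 2 had an input over 2 times the array median, against 12.2% and 13.4% on 3L. As background, a probe in a sequence that occurs many times in the genome receives labeled input DNA from every copy, so that one place cannot be measured apart from its copies. The probe sequences were not used here, and the copy number of single probes was not measured.

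Spots at the upper limit of the scanner were more frequent on the scaffolds in the immunoprecipitate channel. Their share was 1.49% in replicate 1 and 1.08% in replicate 2 on 2LHet, 1.41% and 0.36% on 3LHet, and 2.02% and 0.04% on 3RHet. The arms 2L, 3L and 3R had at most 0.24%. The input channel had 0 saturated spots on the scaffolds, so a saturated immunoprecipitate spot gives a lower bound of its ratio.

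The difference from the arms was large among bins with low and middle input and small, with either sign, among those with high input. Among bins with an input below 0.5 times the array median (a log2 input below −1), 3LHet minus 3L was −0.52 in both replicates and 3RHet minus 3R was −0.65 in replicate 1 and −0.52 in replicate 2. Between a log2 input of 0 and 1 the differences were −0.20 and −0.18 on 3LHet and −0.24 and −0.19 on 3RHet. Between 1 and 2 they were 0.05 in both replicates on 3LHet, and 0.02 and −0.06 on 3RHet. 2LHet minus 2L was −0.54 and −0.30 in the lowest band, where 2LHet had 10 bins, and 0.13 and 0.06 between 1 and 2. Above a log2 input of 2 all differences of the whole scaffolds lay between −0.12 and 0.07. The 3LHet values pool bins of both designs, whereas 3L lies on design 1. The design 1 bins of 3LHet alone differed from 3L by −0.64 and −0.65 in the lowest band. Their differences were −0.27 and −0.30 between 0 and 1, and −0.03 and −0.05 between 1 and 2, where the pooled sign was positive. In all, 4.39% of the scaffold bins and 25.9% of the arm bins lay in the lowest band. Restricted to bins within a factor of 2 of the array median, the mean difference was −0.29 ± 0.03 on 2LHet, −0.30 ± 0.01 on 3LHet and −0.32 ± 0.04 on 3RHet (SD, n = 2 each). With probes of an input over 2 times the array median left out, it was −0.40 on 2LHet, −0.40 on 3LHet and −0.45 on 3RHet.

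**Figure D3:**
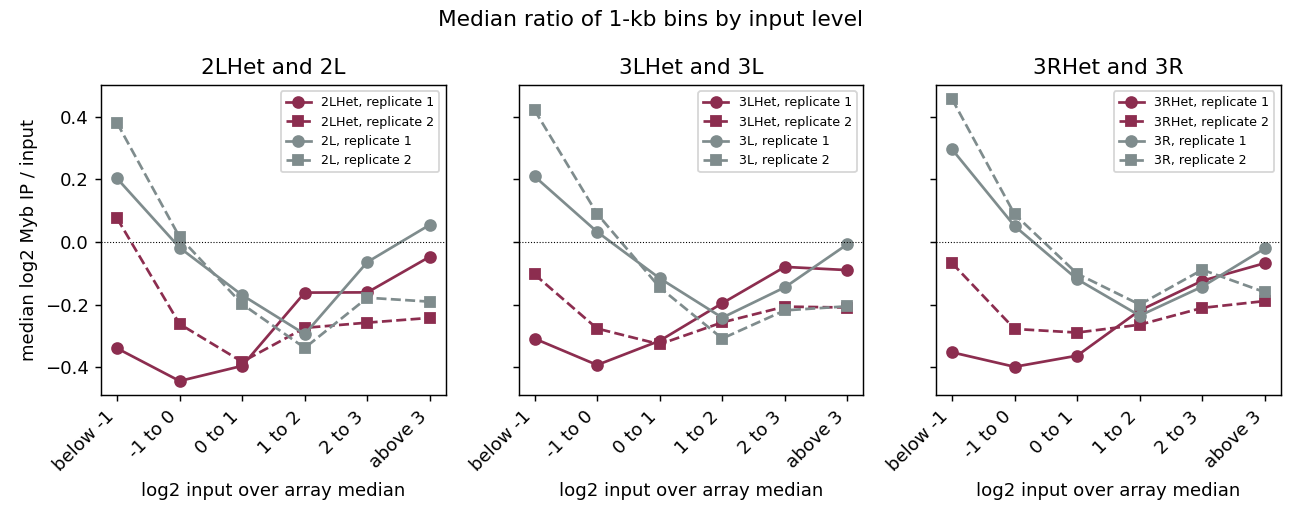
Median over the 1-kb bins of the log2 ratio, Myb immunoprecipitate over input (vertical axis), in bands of log2 input over the array median (horizontal axis) for each scaffold (red) and its arm (grey), replicate 1 as circles and replicate 2 as squares. Scaffold and arm are furthest apart below a log2 input of 0 and come together above 1.

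Over all bins, the correlation of ratio and input had opposite signs on the scaffolds and on the whole arms. Across bins, which share their arrays and the input signal that enters the ratio, Pearson's r of the log2 ratio with the log2 input was 0.08 on 2LHet (255 bins), 0.17 on 3LHet (2243 bins) and 0.19 on 3RHet (2130 bins). Spearman's rho was 0.23, 0.28 and 0.30. Within 3LHet Pearson's r was 0.29 for the bins on design 1 and 0.06 for those on design 2. On the arms Pearson's r was −0.37 on 2L, −0.38 on 3L and −0.47 on 3R. In the pericentric 1 Mb it was −0.0072 on 2L, 0.25 on 3L and −0.38 on 3R, so that the end of 3L had the sign of the scaffolds. In bands of log2 input, the mean of the replicate medians on 3L fell from 0.31 below −1 to −0.28 between 1 and 2. Above 3 it was −0.11. For 3LHet it was −0.21 below −1, −0.33 between −1 and 0, and −0.15 above 3. A single correlation therefore does not describe either course. These values describe the bins of these arrays.

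Bins whose ratio differed from 0 were called by limma's moderated test with Benjamini-Hochberg adjustment over all 146889 bins at an adjusted p of 0.05. The samples are biological replicates by their labels, and the test measures the spread between these 2. On the scaffolds 186 bins were enriched, or 4.02%, against 18.6% of all bins. By scaffold these were 20 bins of 2LHet (7.84%), 126 of 3LHet (5.62%) and 40 of 3RHet (1.88%), against 18.1% of 2L, 21.2% of 3L and 22.8% of 3R. Depleted were 904 scaffold bins, or 19.5%, against 11.1% of all bins. These were 64 bins of 2LHet (25.1%), 477 of 3LHet (21.3%) and 363 of 3RHet (17.0%), against 17.0% of 2L, 13.8% of 3L and 5.94% of 3R.

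How many bins count as depleted rests on where 0 is put. Centred on the mode of the ratios, which shifts the median of all bins by 0.14, 310 scaffold bins were enriched and 301 depleted, in place of 186 and 904, and 26.3% of all bins were enriched and 4.32% depleted. The enriched share of the scaffolds was then 6.70%. On 3RHet the enriched share was 4.41% with the normexp background correction and 0.66% when centred on the arm probes. Above 0 in both replicates were 507 of the 4628 scaffold bins (10.96%), against 38.0% of all bins, and below 0 in both were 68.5%, against 40.6% of all bins.

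The depleted bins of 3LHet lay mostly in its first part. Of the design 1 bins 411 were depleted (33.5%), against 66 of those on design 2 (6.50%). The share was 11.1% of all bins, 13.8% of 3L on design 1 and 5.94% of 3R on design 2. Position and array design cannot be told apart in this count either. The longest unbroken run of depleted bins was of 11 bins at chr3LHet:1249001-1260000, with means of −0.50 in replicate 1 and −0.58 in replicate 2. On 3RHet it was of 10 bins at chr3RHet:813001-823000 (−0.62 and −0.50), and on 2LHet of 6 bins at chr2LHet:273001-279000 (−0.48 and −0.62). The 3 runs had inputs above the array median in both replicates.

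The lowest bin of the scaffolds was chr3LHet:41001-42000, at −1.12 in replicate 1 and −0.97 in replicate 2 (mean −1.04 ± 0.11, SD, n = 2, limma adjusted p = 0.00072). Its log2 input of −1.82 in both replicates was low, and all of its 13 probes were below 0 in replicate 1 and 12 in replicate 2. The next bin, chr3LHet:42001-43000, had −1.03 and −0.79. Of the 9 bins within 5 kb of the lowest bin 8 were depleted, with medians of −0.71 in replicate 1 and −0.77 in replicate 2. The 3 lowest bins of 2LHet and of 3RHet had log2 inputs between −0.43 and 1.48. On 3RHet they included chr3RHet:609001-610000, at −1.21 and −0.65, and chr3RHet:2116001-2117000, at −0.91 and −0.83. On 2LHet the lowest was chr2LHet:175001-176000, at −0.94 and −0.81, with all 11 probes below 0 in both replicates.

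The enriched bins were divided by their input into 2 kinds, and the order of the replicates was opposite in them, on the scaffolds as on the arms. The smaller kind was of 40 bins with an input below the array median. Their median log2 ratio was 0.55 in replicate 1 and 1.00 in replicate 2, with 34 bins higher in replicate 2. These were 20 of 21 bins on 3LHet and 11 of 12 on 3RHet, but 3 of 7 on 2LHet. The larger kind was of 146 bins with an input above the array median. Their median was 0.86 in replicate 1 and 0.32 in replicate 2, with 145 bins higher in replicate 1. Of the 40 low-input bins 0 held a saturated immunoprecipitate spot, and of the 146 high-input bins 78 did in at least 1 replicate. The part of saturation in the difference between the replicates was not tested. The division uses the input signal, which also enters the ratio. Of the low-input enriched bins of the arms 2450 of 3441 were higher in replicate 2 on 2L, 3011 of 4278 on 3L and 3839 of 5849 on 3R. Of the high-input ones 469 of 677 were higher in replicate 1 on 2L, 517 of 828 on 3L and 278 of 456 on 3R. Over all bins of 3LHet, called or not, replicate 2 minus replicate 1 had a median of 0.15 at an input below and −0.11 at an input above the array median. On the arms 83.6% of the enriched bins of 2L, 83.8% of 3L and 92.8% of 3R had an input below the array median, against 35% on 2LHet, 16.7% on 3LHet and 30% on 3RHet.

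**Figure D4:**
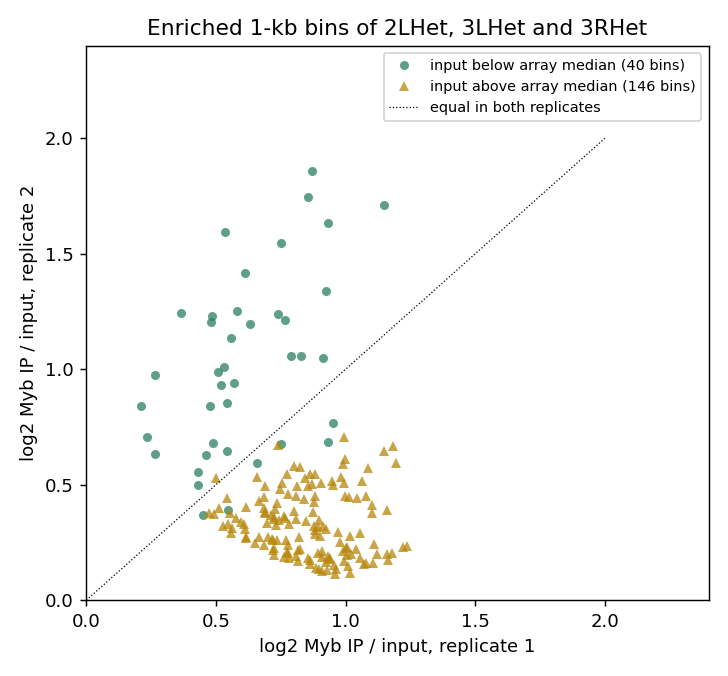
Log2 ratio of Myb immunoprecipitate over input in replicate 1 (horizontal axis) and replicate 2 (vertical axis) of the 186 enriched bins of the scaffolds, with circles for an input below and triangles for an input above the array median. The 40 low-input bins lie mostly above the line of equal values and 145 of the 146 high-input bins lie below it.

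The share of low-input bins that were enriched was below that of the arm on 3LHet and 3RHet and close to it on 2LHet, which had few such bins, and these differences were not tested. Of the 102 bins of 3LHet with a log2 input below −1, 19.6% were enriched and 23.5% depleted, against 42.4% and 6.63% of such bins on 3L. These 3LHet shares pool both array designs, whereas 3L lies on design 1, and the parts differed. The 52 bins on design 1 had 6 enriched and 21 depleted, and the 50 bins on design 2 had 14 enriched and 3 depleted. Position and array design cannot be told apart in these counts. On 3RHet 12.1% of 91 bins were enriched and 20.9% depleted, against 46.0% and 2.73% on 3R. On 2LHet 4 of 10 bins were enriched and 4 depleted, against 41.0% and 7.92% on 2L. Between a log2 input of 0 and 1, 0 of 453 bins of 3LHet, 0 of 378 of 3RHet and 0 of 38 of 2LHet were enriched, against 9.10% of such bins on 3L, 5.97% on 3R and 6.30% on 2L. At an unadjusted limma p under 0.05 these were 1, 1 and 0 bins.

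The low-input kind lay at 20 places, of which 2 were on 2LHet, 11 on 3LHet and 7 on 3RHet, each of at most 4 adjacent bins. On 3RHet all 7 lay beyond its first 1705 kb. On 3LHet the 21 low-input bins ran from 0.21 over a median of 0.54 to 1.15 in replicate 1 and from 0.50 over 1.06 to 1.86 in replicate 2. On 3RHet the 12 bins ran from 0.23 over 0.56 to 0.92 and from 0.63 over 1.02 to 1.55, and on 2LHet the 7 bins from 0.45 over 0.66 to 0.95 and from 0.37 over 0.77 to 1.21. The high-input kind was lower in replicate 2 on each scaffold, and most so on 3RHet, where its 28 bins had medians of 0.93 in replicate 1 and 0.18 in replicate 2. The design 2 bins of 3LHet were like those of 3RHet in this. Over all bins with a log2 input of 2 to 3, the 95th percentile was 0.84 in replicate 1 and 0.15 in replicate 2 there. It was 0.78 and 0.11 on 3RHet and 0.88 and 0.45 for the design 1 bins of 3LHet. Scaffold and array design cannot be told apart here. Both replicates were above 0.5 in 26 of the 40 bins, against 23 of the 146 high-input bins. In the 40 bins 7.75% of the input spots in replicate 1 and 17.3% in replicate 2 were not well above background, and with dim spots left out 39 such bins were called. With the normexp background correction 26 were called.

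The highest bin of all scaffolds was chr3LHet:2398001-2399000, at 1.15 in replicate 1 and 1.71 in replicate 2 (mean 1.43 ± 0.40, SD, n = 2, limma adjusted p = 0.00045), which is 2.69 times the ratio of the typical probe. All 14 of its probes were above 0 in both replicates, between 0.01 and 1.77 in replicate 1 and between 0.43 and 3.52 in replicate 2. The bin before it had 0.93 and 1.64 and the bin after it 0.16 and 0.47, so that the signal ended within a few kb. The median input signal was 205 and 89.2 in its spots, a log2 input of −2.73 in replicate 1 and −3.36 in replicate 2. With the normexp background correction the mean of this bin was 0.98 in place of 1.43.

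Other high bins of 3LHet had the same form. chr3LHet:1396001-1397000 had 0.87 in replicate 1 and 1.86 in replicate 2 (limma adjusted p = 0.00096), with all 14 probes above 0 in both. chr3LHet:2190001-2191000 had 0.86 and 1.74 (limma adjusted p = 0.00094), with 14 of 15 probes above 0 in replicate 1 and 15 in replicate 2. In these 2 bins 5 input spots each were not well above background in replicate 2. With the normexp background correction their means were 0.73 and 0.65, in place of 1.36 and 1.30. The medians of the 10 bins within 5 kb were −0.05 and 0.03 around the first and −0.29 and 0.23 around the second.

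On 3RHet the highest bins were a pair of neighbours. chr3RHet:1899001-1900000 had 0.75 in replicate 1 and 1.55 in replicate 2 and chr3RHet:1898001-1899000 had 0.92 and 1.34 (limma adjusted p = 0.0013 and 0.00069). All 12 probes of the first were above 0 in both replicates. The bins 3 to 5 kb from it lay between −0.31 and 0.21. The third was chr3RHet:1823001-1824000 with 0.61 and 1.42, where 6 of 12 input spots in replicate 2 were not well above background. With normexp it lost its call, at a mean of 0.32 in place of 1.02 (limma adjusted p = 0.088, against 0.0025), and chr3RHet:1899001-1900000 had 0.45 in place of 1.15.

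The highest bins of 2LHet lay at 2 places. chr2LHet:169001-170000 had 0.77 in replicate 1 and 1.21 in replicate 2, its neighbour chr2LHet:168001-169000 had 0.95 and 0.77, and chr2LHet:32001-33000 had 0.79 and 1.06 (limma adjusted p between 0.0013 and 0.0017). With normexp the mean of the first was 0.42 in place of 0.99 and that of the third 0.58 in place of 0.92. The third began a run of 4 enriched bins at chr2LHet:32001-36000 with means of 0.62 and 0.72, which tied with 1 other run as the longest of 2LHet.

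**Figure D5:**
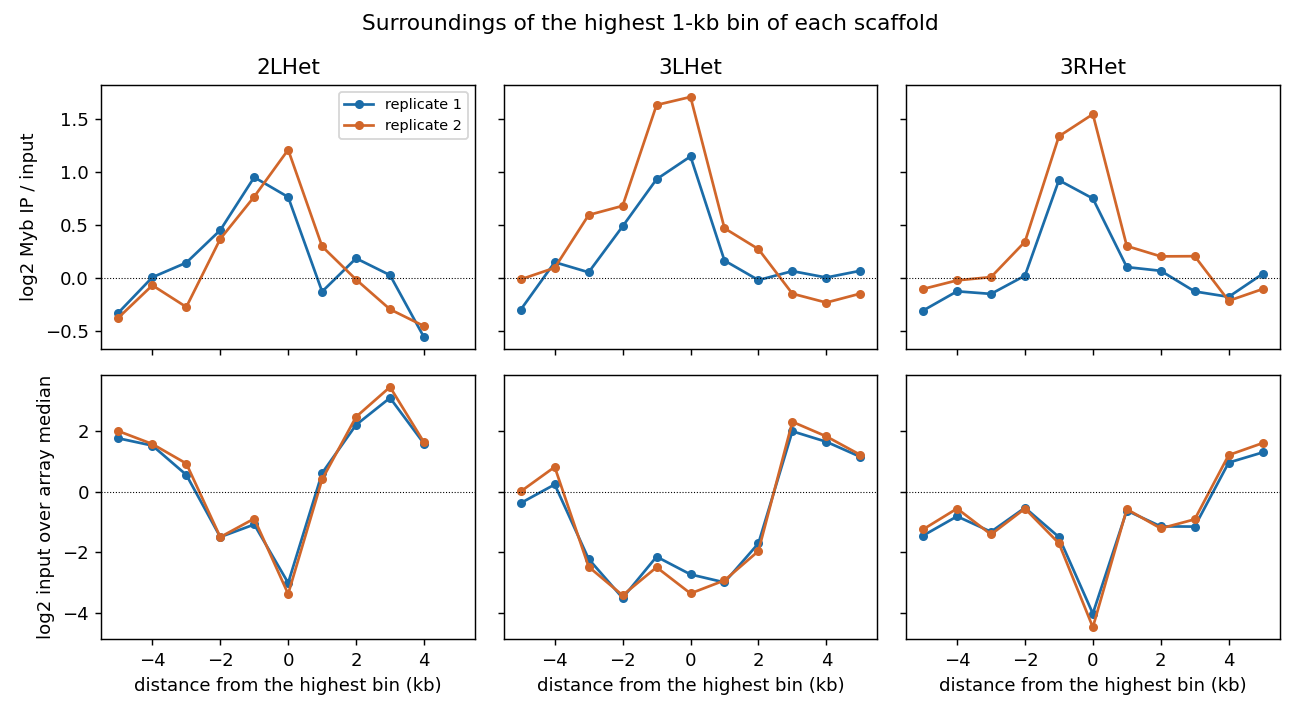
Log2 ratio of Myb immunoprecipitate over input (upper row) and log2 input over the array median (lower row) of the 1-kb bins within 5 kb of the highest bin of each scaffold (horizontal axis, distance in kb), in replicates 1 and 2. The highest ratios are at bins whose input is below the array median.

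The longest enriched runs on the other scaffolds were of the high-input kind. On 3LHet 6 bins at chr3LHet:536001-542000 had means of 0.76 in replicate 1 and 0.41 in replicate 2, at a log2 input of 2.68 and 2.93. On 3RHet 5 bins at chr3RHet:854001-859000 had 0.95 and 0.19, at an input of 2.42 and 2.99. The longest enriched runs of the arms held 39 bins on 2L, 27 on 3L and 32 on 3R, all with inputs below the array median.

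Myb-bound regions were called in addition with a neighbourhood rule in which 4 or more significant probes lie at most 300 bp apart. Its distance and number limits are those of the study's methods, whereas its p-values come from a null estimated here from the mean ratios. There were 13 regions on 2LHet, 85 on 3LHet and 21 on 3RHet, against 2570 on 2L, 3208 on 3L and 3720 on 3R. Bins that overlapped a region were 8.63% of 2LHet, 6.91% of 3LHet and 1.69% of 3RHet, against 22.4% of all bins. Bins in low regions, called by the same rule below the null, were 1.18%, 3.17% and 2.35%, against 2.70% of all bins. Bound regions of 3LHet had a median ratio of 0.97 in replicate 1 and 0.49 in replicate 2, against 0.79 and 0.88 on 3L. Of the 85 regions of 3LHet 71 had an input over 2 times the array median and 31 held a saturated spot, against 134 and 58 of the 3208 regions of 3L.

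The longest region was 4357 bp at chr3LHet:951623-955979, with 51 probes at a mean of 1.08 in replicate 1 and 0.59 in replicate 2 and a log2 input of 2.69 and 3.03. The next on 3LHet were 3486 bp at chr3LHet:1079775-1083260 (0.85 and 0.62) and 2762 bp at chr3LHet:499274-502035 (1.03 and 0.57), both with high inputs. On 3RHet the longest was 2020 bp at chr3RHet:1897907-1899926 (0.82 and 1.45), over the highest bins. It was followed by chr3RHet:1789938-1791895 (1.20 and 0.18), whose input was high, and by chr3RHet:1823069-1824584 (0.79 and 1.59). On 2LHet they were chr2LHet:168315-169958 (0.92 and 1.12), chr2LHet:32318-33849 (0.79 and 1.18) and chr2LHet:41995-43494 (1.06 and 0.45). Replicate 1 alone gave 16, 99 and 43 regions on 2LHet, 3LHet and 3RHet and replicate 2 alone 4, 30 and 12. Of the regions of replicate 1, 4 on 2LHet, 17 on 3LHet and 5 on 3RHet overlapped a region of replicate 2, against 1707 of 2240 on 2L, 2062 of 2704 on 3L and 2115 of 2674 on 3R. On the arms replicate 2 alone gave more regions than replicate 1, with 2743 on 2L, 3328 on 3L and 4619 on 3R.

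Transcripts on the scaffolds were known here only from a partial list, which placed 2 protein-coding genes on them. *CG40160* at chr3LHet:1571199-1572464 averaged −0.14 in replicate 1 and 0.02 in replicate 2 over 18 probes on the log2 scale, and 0 of its 2 bins were called by limma, with 0 at an unadjusted p under 0.05. *CG42402* at chr3RHet:2437627-2443789 had −0.41 and −0.10 over 69 probes, and 1 of its 7 bins was depleted, against 11.1% of all bins and 17.0% of 3RHet, with 2 at an unadjusted p under 0.05. This bin, chr3RHet:2437001-2438000, had a limma adjusted p of 0.048, which was 0.19 when centred on the mode and 0.10 with the median of its probes. Exons, introns and promoters of the scaffolds were not analysed here, and the other bins named above are given by position only.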

How the data were processed

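Myb ChIP-chip was analysed in yw67 wing discs on 4 arrays, with 2 biological replicates and 2 Agilent array designs. In the scanner files the authors deposited, the intensities of both channels had been background-subtracted and dye-normalized by Agilent Feature Extraction version 11.5.1.1. The log10 ratios that the authors deposited were used only as a check, and were the same as the ratio computed here within 0.001 for 99.5% to 99.7% of the spots. A deposited table of the whole series holds log2 values of each replicate over both designs, whose normalization is not stated. Centred on the median of each design, it served as an alternative. All of its sample columns were mapped.

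Here the log2 of the Cy5 over the Cy3 processed intensity was computed per spot. Control spots and spots marked as outliers were left out, saturated spots were kept and replicate spots of a probe were averaged. Ratios were centred on the median of the genome probes of an array, without loess or quantile normalization. Probes measured in both replicates were averaged by their start position in 1-kb bins with 5 or more probes. The input level is the log2 of the Cy3 intensity over its array median. Positions are those of the dm3 assembly in the probe names.

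Bins were set against 0 in limma version 3.58.1 under R version 4.3.3 (lmFit and eBayes, intercept only, two-sided), with Benjamini-Hochberg adjustment over all bins and a threshold of 0.05. Regions were called in Python version 3.11.15. The null was centred on the mode of the arm probes of each design for the mean of both replicates, with the spread of the probes below it. A probe was significant when its mean p-value with a neighbour at most 1000 bp away was below 0.05. Limma and the region rule were tested on simulated data. Scaffold and arm were compared by their medians within each replicate. The small number of arrays limits the precision.

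Bins named in the text are the 3 highest and the 3 lowest of each scaffold, the longest runs of called bins, the 3 longest bound regions, and bins over transcripts of the part of the transcript list that was used here. The members and lists were chosen with earlier results of these data known. Probe sequences and a dm3 genome and annotation were not used here.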

Additional observations from a re-analysis of the deposited data

Results flagged for a closer look

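3RHet and its arm 3R lay on opposite sides of 0 in both replicates, with medians of −0.21 and −0.23 on 3RHet and 0.05 and 0.09 on 3R. The mean difference was −0.29 on the log2 scale. The difference was not tested, since 2 replicates allow no exact test below a two-sided p of 0.5. The opposite signs depend on the centring. Centred on the arm probes of each array, 3RHet was at −0.27 and −0.34 and 3R at −0.012 and −0.013, both below 0, whereas centred on the mode 3RHet had a mean of −0.075 and 3R was at 0.20 and 0.23.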

How the results depend on the processing

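The scaffold medians and the differences from the arms stayed negative under each alternative tried. Centring on the mode put the medians at −0.098 (2LHet), −0.089 (3LHet) and −0.075 (3RHet), the depleted shares at 10.6%, 8.92% and 3.47%, the enriched shares of 3LHet and 3RHet at 8.56% and 4.41%, and the enriched bins with input above the array median at 262. Centring on the arm probes gave medians of −0.28 (3LHet) and −0.30 (3RHet), 0.66% enriched and 30.8% depleted bins on 3RHet, and 95 enriched bins with high input. With normexp the medians were −0.17 on 3LHet and on 3RHet, the differences −0.16 (3LHet) and −0.22 (3RHet) and the enriched shares 8.56% and 4.41%, with 26 enriched bins at low and 284 at high input and 41 regions on 3RHet. On 2LHet the difference with normexp was −0.095 ± 0.089 (SD, n = 2). It was small in replicate 1, with −0.095 on 2LHet and −0.063 on 2L. The deposited table gave 1.08% enriched bins on 3RHet.

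Without probes whose input exceeded 2 times the array median, the medians were −0.42 (2LHet), −0.34 (3LHet) and −0.34 (3RHet), the differences −0.40, −0.40 and −0.45, the depleted shares 53.0%, 39.1% and 37.0%, and the enriched share of 3LHet 2.79%. In bins of 500 bp the depleted shares were 16.3% (2LHet) and 10.9% (3RHet), and in bins of 2000 bp 26.1% (3RHet). Tested as single probes, 2.83% and 4.99% were enriched and depleted on 2LHet, 1.87% and 5.02% on 3LHet, and 0.47% and 2.68% on 3RHet, against 9.77% and 3.86% of all probes. The following alternatives were chosen after seeing the data. Centred on the mode, the differences from the arms were −0.16, −0.22 and −0.29. Bins within a factor of 2 of the median input gave differences of −0.29 (2LHet) and −0.30 (3LHet). The bins of 3LHet on design 1 gave a difference of −0.30 and 33.5% depleted, and those on design 2 gave 3.64% enriched and 6.50% depleted. Why these values moved was not tested, apart from the construction of each alternative.

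Bound regions on 2LHet, 3LHet and 3RHet numbered 3, 15 and 5 at a mean p-value below 0.01, and 2, 4 and 3 below 0.001. Regions of replicate 1 that overlapped one of replicate 2 numbered 4, 17 and 5. With 1 replicate left out the counts were 4 to 16, 30 to 99 and 12 to 43, the medians −0.26 to −0.17, −0.24 to −0.21 and −0.23 to −0.21, and the differences from the arms −0.21 to −0.11, −0.26 to −0.20 and −0.33 to −0.26. The lower region counts were those without replicate 1. Of the 18 highest and lowest bins, 17 kept their call with normexp, the exception being chr3RHet:1823001-1824000, and all 18 under the other alternatives with 1-kb bins. Normexp also lowered ratios of the highest bins, with values such as 0.45 in place of 1.15 at chr3RHet:1899001-1900000.

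No paired analysis was possible because the same-numbered arrays hold different positions of the same condition, so there are no groups of samples to fit with a block. The differences between scaffold and arm were taken within each replicate. Saturated immunoprecipitate spots and dim input spots limit the ratios at high and at low input.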
